A study of Mus musculus with 17 samples.

Results

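Genes of gap junction and pannexin channels were followed in mouse cochlear RNA: the connexins Gjb2, Gjb6, Gja1 and Gjc3, and the pannexin Panx1. They were chosen by gene symbol, and all 5 of the 5 symbols matched exactly 1 of the 35285 genes in the table. Total RNA from 17 C57BL/6J mice was sequenced, 1 mouse a library, in 3 control, 7 NE and 7 brimonidine libraries. NE (noise exposure) mice heard noise of 8 to 16 kHz at 100 dB for 2 h, which the sample labels call broadband. Brimonidine mice had the same noise and 3 intraperitoneal injections of brimonidine, an α2-adrenergic agonist, at 1 mg/kg, on the day before, the day of and the day after exposure. Control mice received saline on that schedule and no noise, and the methods name no injection for the NE mice. All mice were wild type by label, 8 weeks old and of a strain that carries the age-related hearing loss allele of Cdh23, and tissue was taken 2 days after exposure. The labels describe the cells as interstitial cells of the cochlea, the sequencing methods name the cochlea, and the qPCR methods name basilar membrane tissue of which a portion was sequenced.

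Connexins assemble into hexamers in the cell membrane, and hexamers of adjoining cells dock to form gap junctions through which ions and small metabolites pass. In the cochlea, supporting cells and epithelium form one coupled network, and the fibrocytes and the basal and intermediate cells of the lateral wall form another, which are held to take part in the return of potassium to endolymph. Gjb2 (connexin 26) and Gjb6 (connexin 30) build most of these junctions, and mutations in either gene are linked to deafness. Gja1 (connexin 43) is the widespread connexin of bone cells, fibroblasts and astrocytes, Gjc3 (connexin 29) is made by myelinating glia, among them the Schwann cells of the cochlear nerve, and Panx1 forms channels that release ATP rather than junctions between cells.

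Gjb2 (ENSMUSG00000046352) lies on the minus strand at chr14:57098600-57104702 of GRCm38, and Gjb6 (ENSMUSG00000040055) on the same strand at chr14:57123303-57133611, 18600 bp away. Gja1 (ENSMUSG00000050953) lies at chr10:56377330-56402513 on the plus strand, Gjc3 (ENSMUSG00000056966) at chr5:137953461-137963098 on the minus strand, and Panx1 (ENSMUSG00000031934) at chr9:15002128-15045478 on the minus strand. Bases before the start sites were taken from RefSeq on GRCm38.p6 for all 5 genes. Shown here are the 250 bases before the start of Gjb2 and Gjb6, because this neighbouring pair moved together across libraries, and those of Gjc3, the member that differed between groups. Each is written 5′ to 3′ on the strand of its gene, and capitals mark matches to GGGCGG (GC box) or TTAAAA on either strand.
Gjb2: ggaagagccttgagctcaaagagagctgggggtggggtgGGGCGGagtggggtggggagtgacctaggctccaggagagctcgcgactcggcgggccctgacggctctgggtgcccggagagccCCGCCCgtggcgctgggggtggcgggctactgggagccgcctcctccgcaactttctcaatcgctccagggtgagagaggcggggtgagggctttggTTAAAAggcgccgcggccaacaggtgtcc
Gjb6: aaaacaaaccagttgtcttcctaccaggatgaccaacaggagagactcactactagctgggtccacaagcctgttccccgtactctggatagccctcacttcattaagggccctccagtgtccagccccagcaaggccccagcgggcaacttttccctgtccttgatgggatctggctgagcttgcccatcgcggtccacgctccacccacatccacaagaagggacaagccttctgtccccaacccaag
Gjc3: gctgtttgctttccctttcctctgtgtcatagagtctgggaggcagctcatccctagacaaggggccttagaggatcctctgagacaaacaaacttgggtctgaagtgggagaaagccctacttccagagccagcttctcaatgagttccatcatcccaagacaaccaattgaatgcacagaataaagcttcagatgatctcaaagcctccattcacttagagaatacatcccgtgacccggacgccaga
These windows are chr14:57104703-57104952, chr14:57133612-57133861 and chr5:137963099-137963348. The Gjb2 window held 2 GC boxes and 1 TTAAAA that began 29 bases before the start, and its GC content was 69.2%. Gjb6, at 56.8%, and Gjc3, at 48.8%, held neither motif. Among 32851 promoters of the same length, 32.7% held the GC box on either strand. The letters TTAAAA were held by 17.7% of them. The TATA box, TATAAA, was in none of the 5 member windows and in 12.4% of all promoters. The SOX letters searched were ACAAAG, held by 16.5% of all promoters and no member window. A second SOX spelling, ACAATG, was likewise in no member window and in 10.7% of promoters. No match overlapped another in these windows.

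Levels are given as FPKM, fragments counted on a gene relative to the length of its exons and to the library total, as the authors deposited them. The libraries held 14457691 to 18288777 counted fragments as recovered from the values, and each member's fragments came out whole in all 17 libraries, from 1723 to 6269 for Gjb2 and from 133 to 800 for Gjc3. Control 2 stood apart from controls 1 and 3 before any comparison. The summed FPKM of 7 neutrophil genes was 9233 in control 2, 42034 in control 1 and 44408 in control 3, while the 6 fibrocyte genes of the spiral ligament summed to 1452 in control 2 against 579 and 779. In the same library Gjb2 was 2.79 times, Gjb6 2.61 times, Gja1 2.15 times and Gjc3 2.77 times the mean of controls 1 and 3, and Panx1 was 0.885 times. The median gene was 1.09 times. Of all genes at 1 FPKM or more in 3 libraries, 96.4% had a lower ratio than Gjb2. In bulk RNA, a change in the number of cells of a type and a change in RNA per cell cannot be told apart, and the differences of the members from the controls are given with and without control 2.

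**Figure D1:**
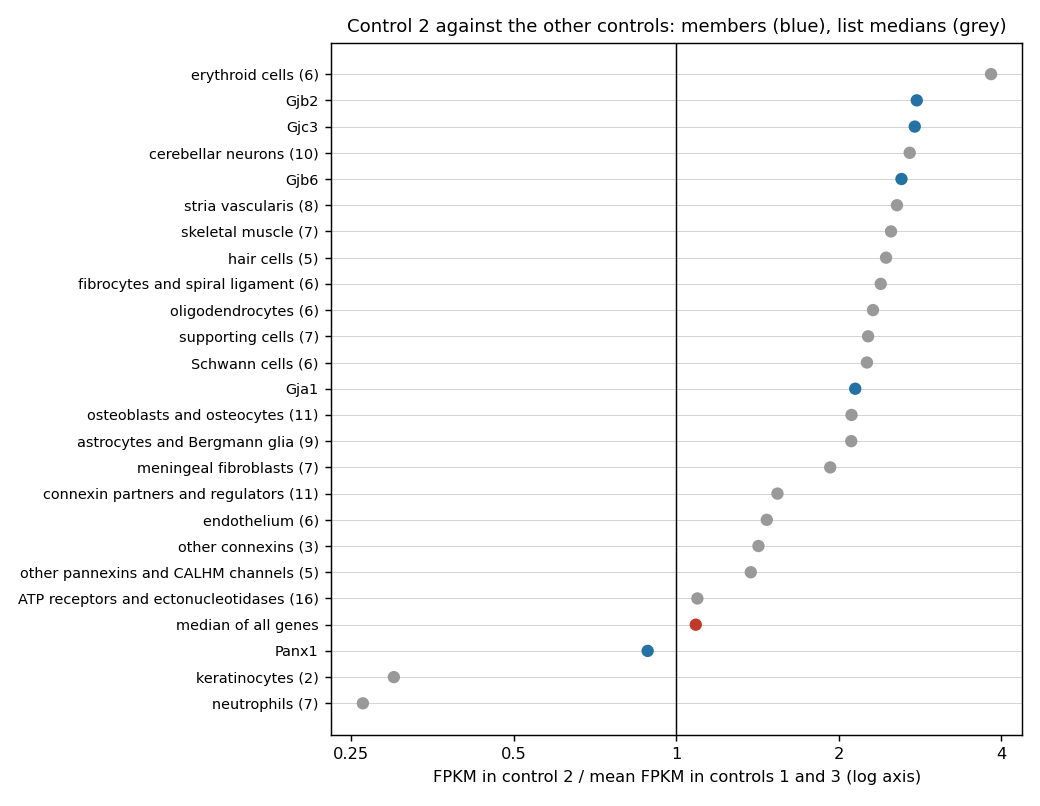
FPKM in control 2 divided by the mean of controls 1 and 3, on a log axis, for the 5 members (blue), the median over all genes (red) and the medians of related and cell type lists (grey, with the number of genes). The 4 connexin members lie between 2.15 and 2.79, as do the cochlear, Schwann cell and oligodendrocyte lists, skeletal muscle at 2.50 and cerebellar neurons at 2.71. The astrocyte and bone lists lie at 2.11, erythroid cells at 3.83, and Panx1 lies at 0.885.

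Labelled cochlear tissue was checked on its markers. All 6 fibrocyte genes and all 8 genes of the stria vascularis, the ion-transporting epithelium of the lateral wall, reached 1 FPKM in at least 3 libraries, as did 7 of 9 supporting cell genes and 5 of 8 hair cell genes. Genes of other tissues were also present. Neutrophil genes summed to between 9233 and 62728 FPKM, bone cell genes to between 587 and 1542 FPKM, and genes of cerebellar neurons to between 229 and 633 FPKM in the controls against 21.4 to 84.3 FPKM in the 14 exposed libraries. The 7 skeletal muscle genes summed to 200, 538 and 238 FPKM in the controls, 388 to 928 in the NE group and 308 to 795 in the brimonidine group. No gene of any of these lists was at 0 in all libraries.

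Gjb2 was the highest connexin. Its FPKM was 49.5, 172 and 73.5 in controls 1, 2 and 3, ran from 53.6 through a median of 61.0 to 84.7 in the NE group, and from 59.4 through 69.5 to 77.3 in the brimonidine group. Gjb6 was at 36.6, 100.0 and 39.9 FPKM in the controls, from 36.1 through 38.1 to 50.7 in the NE group and from 37.6 through 40.3 to 44.6 in the brimonidine group. The groups overlapped for both genes, with control 1 below every NE library for Gjb2 and control 2 above every exposed library. Group means for Gjb2 were 98.2 ± 64.7 (SD, n = 3), 64.9 ± 10.0 (SD, n = 7) and 68.5 ± 5.76 FPKM (SD, n = 7). Those for Gjb6 were 58.8 ± 35.7, 41.0 ± 5.22 and 41.1 ± 2.98 FPKM.

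Gja1 stood at 7.66, 16.3 and 7.55 FPKM in the controls, from 4.78 through 5.64 to 8.06 in the NE group, and from 4.88 through 6.47 to 6.74 in the brimonidine group. All brimonidine libraries were below the lowest control, and 1 NE library, NE 1, was above controls 1 and 3. Its deposited level is low beside its level per principal transcript, because the merged exons behind the FPKM span 10257 bp where the principal transcript has 3182 bp. On the principal transcript lengths, Gja1 stood between 15.4 and 52.6 FPKM, still below Gjb6 in all 17 libraries.

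Gjc3, the connexin of myelinating glia, was the only member for which every exposed library of both groups lay below every control. It was at 4.37, 12.1 and 4.38 FPKM in the controls, from 1.93 through 2.47 to 3.04 in the NE group, and from 2.30 through 2.66 to 3.42 in the brimonidine group. The highest exposed library was brimonidine 5, and controls 1 and 3 differed from each other by far less than they differed from it. Brimonidine 5 was also the exposed library with the highest sum of cerebellar neuron genes, at 84.3 FPKM, where the other 13 exposed libraries reached at most 30.8. Panx1 showed another pattern. Its FPKM was 2.72, 2.32 and 2.52 in the controls, from 2.35 through 2.69 to 3.27 in the NE group and from 2.21 through 2.51 to 2.73 in the brimonidine group, and control 2 was its lowest control.

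**Figure D2:**
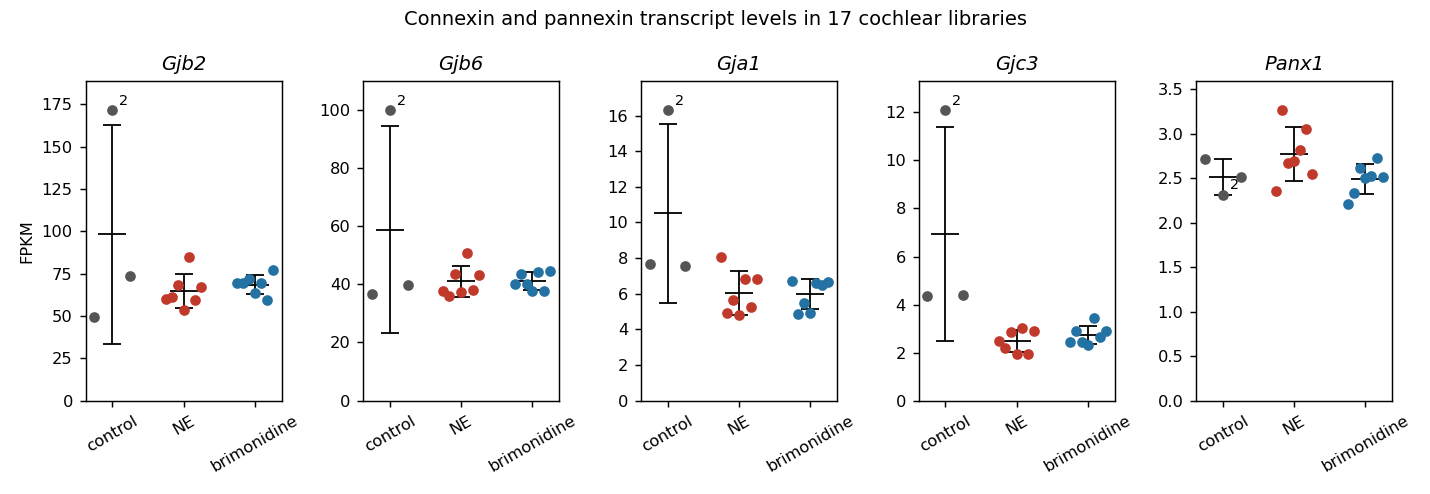
FPKM of each member in every library, as points by group on linear axes that start at 0, with bars for the mean and SD and the digit 2 marking control 2. Gjc3 in the exposed libraries reaches at most 3.42 FPKM and in the controls at least 4.37 FPKM, while Gjb2, Gjb6 and Panx1 overlap between groups.

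The order Gjb2, Gjb6, Gja1 held in all 17 libraries on either length. Gjc3 exceeded Panx1 in 11 libraries on the deposited lengths and in 12 on the principal lengths, all 3 controls among them, so these neighbours in the order were not separated by their spread in the exposed groups. By mean FPKM over all libraries Gjb2 ranked 636 and Gjb6 1185 among the genes with a unique symbol, against 7362 for Gja1, 10521 for Gjc3 and 11570 for Panx1. Together Gjb2 and Gjb6 made up between 80.9% and 87.1% of the summed FPKM of the 19 connexin genes in the table. Only 7 of these 19 reached 1 FPKM in at least 3 libraries, the 4 members among them. Another 8 were below 1 FPKM in every library.

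Noise was compared with no noise first. The NE group had lower Gjc3 than the control group, by a log2 fold change of -1.07 (SE 0.25, adjusted p = 0.018, limma), and its group means were 2.48 ± 0.467 and 6.95 ± 4.46 FPKM. The exact two-sided permutation p was 0.0167, the smallest that 7 libraries against 3 allow. Of the 5 members, 1 passed the adjusted p of 0.05, where 14.1% of the 15950 genes tested passed, 12% in the lower direction. With a log2 fold change of at least 1 as well, Gjc3 still passed, against 5.76% of genes. It was also the only member whose groups did not overlap, where 18.3% of genes did not.

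The other connexins of the cochlear networks did not pass. Gja1 was at -0.64 (SE 0.22, adjusted p = 0.0768, limma), with a 95% interval from -1.13 to -0.15 before adjustment, and its exact permutation p was 0.05. Leaving out control 1 gave -0.81 (adjusted p = 0.0439, limma), a call, where 24.3% of genes were called. Gjb2 was at -0.41 with an interval from -1.06 to 0.25, Gjb6 at -0.36 with an interval from -0.94 to 0.21, and Panx1 at 0.10 with an interval from -0.11 to 0.30. Scaling moved Panx1, to 0.32 (interval 0.06 to 0.57, adjusted p = 0.0838, limma) by quantiles and to 0.25 (interval -0.24 to 0.74) relative to the fibrocyte genes, and it was not called under either. The median log2 fold change of the members was -0.41 and that of all genes tested was -0.04.

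Values changed when control 2 was left out, and Gjc3 was still the 1 member of 5 called, where 6.74% of 15431 genes were. Without that library, Gjb2 and Gjb6 both stood at 0.09, with intervals from -0.30 to 0.48 and from -0.18 to 0.36, so that the sign of both changed. Gja1 was at -0.31 (adjusted p = 0.328, limma) with an interval from -0.67 to 0.05. Gjc3 stayed lower at -0.64 (SE 0.14, adjusted p = 0.0208, limma), now under a log2 fold change of 1. With 7 libraries against 2, its exact permutation p of 0.0556 was the smallest possible.

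Brimonidine mice were compared with control mice in the same way, and since this comparison uses the same 3 controls, it is not independent of the one before. Gjc3 was again lower, at -0.97 (SE 0.24, adjusted p = 0.023, limma) with a mean of 2.72 ± 0.380 FPKM, at -0.54 (SE 0.11, adjusted p = 0.0111, limma) without control 2, and at -0.58 (adjusted p = 0.00326, limma) without control 2 and brimonidine 5. It was the 1 member of 5 that passed, where 15.8% of 15947 genes passed, 12.3% in the lower direction, and 5.73% passed with a log2 fold change of at least 1, which Gjc3 missed. Gjc3 and Gja1 did not overlap between groups, as was the case for 19.4% of genes. Gja1 was at -0.65 (SE 0.20, adjusted p = 0.0535, limma) with an exact permutation p of 0.0167, the smallest possible, but its size depended on which control was left out. It was at -0.32 (adjusted p = 0.146, limma) without control 2, and it was called at -0.81 (adjusted p = 0.0256, limma) without control 1 and at -0.82 (adjusted p = 0.0384, limma) without control 3, where 30.1% and 14.1% of genes were called. Gjb2 at -0.32, Gjb6 at -0.35 and Panx1 at -0.01 did not pass. Without control 2, Gjb2 was at 0.18, Gjb6 at 0.10 and Panx1 at -0.05, and Gjc3 was the 1 member called, where 9.48% of 15535 genes were.

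Between the brimonidine and NE groups, which both had the noise, 0 of the 5 members passed in limma, where 0.00637% of the 15707 genes did, that is 1 gene. At an unadjusted p under 0.05 (limma) there were 0 members, against 5.77% of genes. In a voom fit of the recovered fragments 0 members passed, against 0.00659% of 15172 genes. The groups of every member overlapped, where 0.14% of genes did not. The intervals bound the difference on the log2 scale. Gjb2 differed by 0.09 with a 95% interval from -0.10 to 0.27, Gjb6 by 0.01 from -0.15 to 0.17, and Gja1 by -0.01 from -0.24 to 0.22. For Gjc3 the difference was 0.10, from -0.09 to 0.29, and for Panx1 -0.11, from -0.23 to 0.02. Among the exact permutation tests of the 5 members the smallest p was 0.0577, for Panx1, whose mean was 2.77 ± 0.307 FPKM in the NE and 2.49 ± 0.173 FPKM in the brimonidine group. A p above the threshold does not show that the groups were alike.

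**Figure D3:**
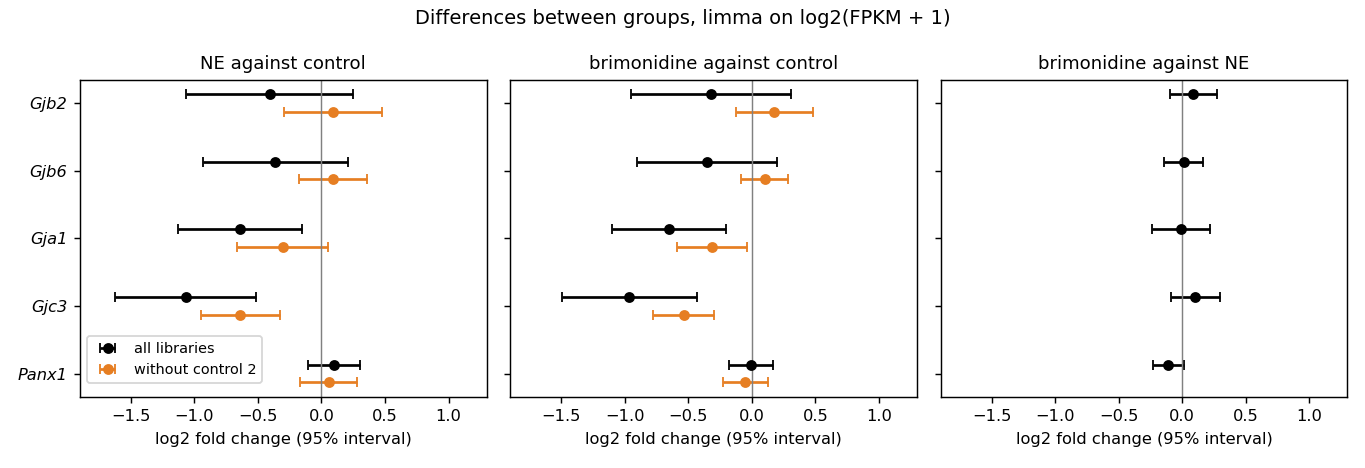
Log2 fold change of each member with its 95% interval from limma, in the 3 comparisons, for all libraries (black) and without control 2 (orange), with a line at 0. Gjc3 lies below 0 in both fits against the controls, Gjb2 and Gjb6 cross from below to above 0 without control 2, and all intervals of brimonidine against NE hold 0.

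Gjc3 was set beside markers of the glia that make it. The 7 Schwann cell genes in the table summed to 70.3, 204 and 74.2 FPKM in the controls, between 61.4 and 118 in the NE group and between 67.4 and 94.0 in the brimonidine group, and 0 of the 6 tested passed in any comparison (limma), with 0 at an unadjusted p under 0.05 against control and 2 in brimonidine against NE, and 0 passed without control 2. Over all genes tested, 32.9% had such a p in NE against control, 35.6% in brimonidine against control and 5.77% in brimonidine against NE, and the counts at an unadjusted p given here are to be read against these shares. The 8 oligodendrocyte genes summed to 20.8, 45.4 and 20.7 FPKM in the controls and to at most 19.1 FPKM in the exposed groups. In NE against control 1 oligodendrocyte gene, 1 astrocyte gene and 6 genes of cerebellar neurons passed the filter on low values only through the controls, where they are high, so they had to differ and are not counted here. Of the others, 1 of 5 oligodendrocyte genes, 7 of 8 astrocyte and Bergmann glia genes and 4 of 4 genes of cerebellar neurons were lower (limma), and 1 of 5, 6 of 8 and 4 of 4 without control 2. In brimonidine against control, where 2, 1 and 5 genes were set aside in the same way, these were 2 of 4, 7 of 8 and 5 of 5, and 1 of 4, 4 of 8 and 5 of 5 without control 2. Skeletal muscle genes went the other way, with 3 of 7 higher in the NE group and 0 of 7 in the brimonidine group (limma, 3 at an unadjusted p under 0.05), or 7 of 7 and 3 of 7 without control 2. Per 100 FPKM of the Schwann cell list, Gjc3 was at 5.91 to 6.21 in the controls, 2.42 to 4.04 in the NE group and 2.45 to 4.27 with brimonidine, and the controls did not overlap with either. Per 100 FPKM of the oligodendrocyte list it was at 21.0 to 26.6, 15.3 to 27.6 and 16.0 to 37.1, which overlapped. In the exposed groups this quantity varied with the sum itself. NE 7 and brimonidine 2, with the highest sums of their groups, had the lowest values, 15.3 and 16.0, against 21.0 and 21.2 in controls 1 and 3. NE 6 and brimonidine 6, with the lowest sums, had the highest values, 27.6 and 37.1. The exact permutation p of NE against control was 0.0167 for the first quantity and 0.6 for the second, or 0.0746 and 0.626 adjusted over 24 such tests, a set chosen after values were seen. The part of these glia, neurons and muscle in the Gjc3 difference was not tested.

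**Figure D4:**
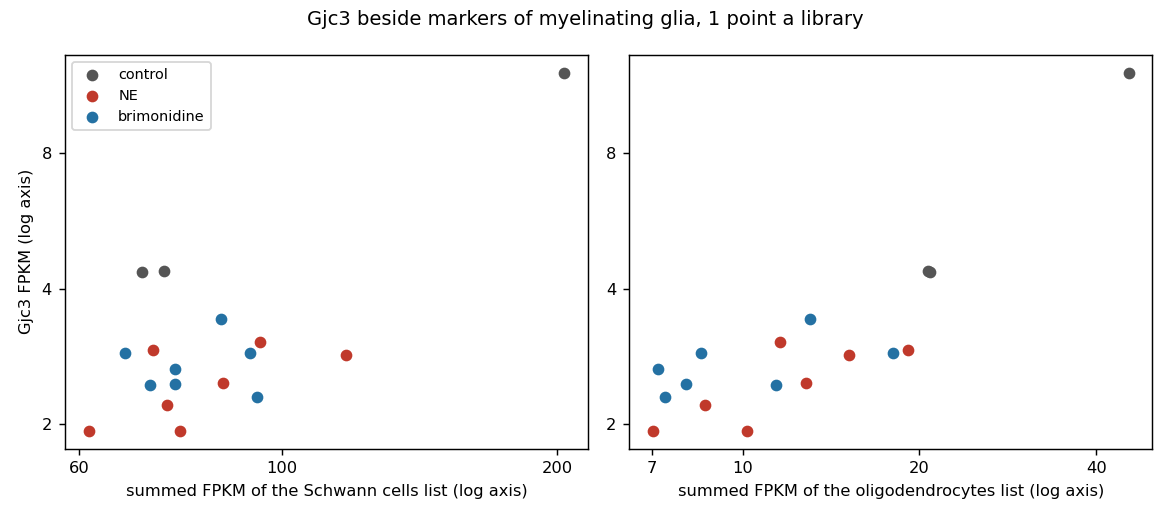
Gjc3 FPKM against the summed FPKM of the Schwann cell list (left) and the oligodendrocyte list (right), on log axes, with 1 point a library coloured by group. Controls 1 and 3 lie above the exposed libraries of like Schwann cell sums. On the right they also lie above NE 7 and brimonidine 2, the exposed libraries with the nearest oligodendrocyte sums. Gjc3 is at 4.37 and 4.38 FPKM in these controls, against 2.92 in NE 7 and 2.88 in brimonidine 2. Control 2 lies at the upper end of both panels.

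Gjb2 and Gjb6 varied together. Over the 14 exposed libraries, each centred on its group mean, their Pearson r on log2(FPKM + 1) was 0.90, and Gjb6 ranked first among 14658 genes for likeness to Gjb2, ahead of Pou3f3, Ptn and Fxyd6. For Gjb6 the leading genes were Jam3, Gjb2, Eya1 and Slco1c1. Pou3f3 and Eya1 encode transcription regulators with known roles in inner ear development, and Jam3 a junctional adhesion molecule. Among the summed lists, r over the same libraries was highest with the fibrocyte genes, at 0.89 for Gjb2 and 0.82 for Gjb6. With the stria vascularis genes it was 0.76 and 0.70, and with the supporting cell genes 0.75 and 0.60. The libraries share depth and tissue makeup, and these values are descriptions. Within a library the ratio of Gjb2 to Gjb6 was 1.35, 1.72 and 1.84 in the controls, 1.43 to 1.69 in the NE group and 1.58 to 1.78 in the brimonidine group. Group means were 1.64 ± 0.255, 1.58 ± 0.0857 and 1.67 ± 0.0857, and the exact permutation p was 0.667 for NE against control, 0.0822 for brimonidine against NE and 0.633 for brimonidine against control.

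**Figure D5:**
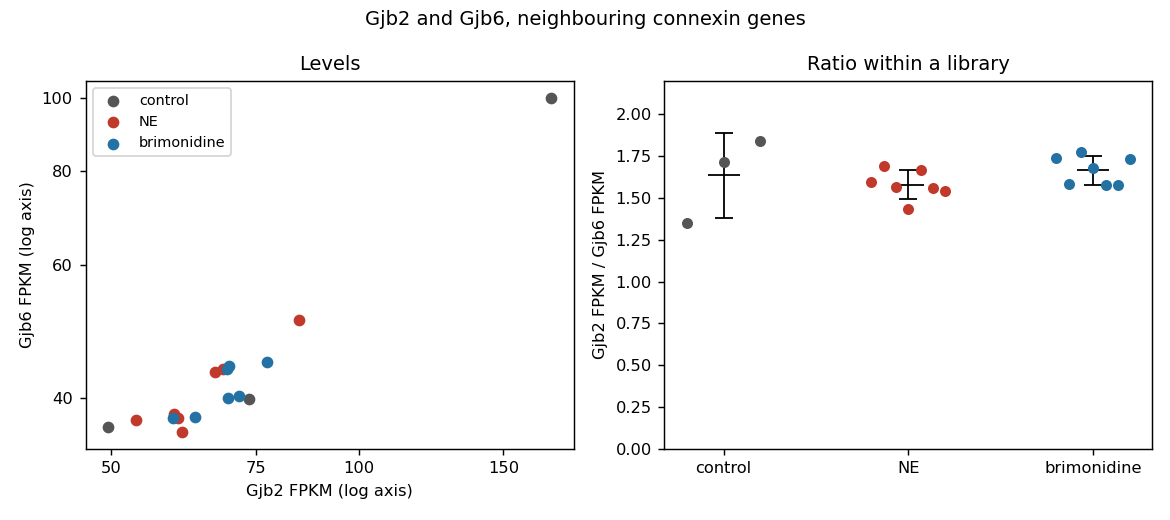
Left, Gjb6 against Gjb2 FPKM on log axes, 1 point a library. Right, their ratio within each library with mean and SD by group on an axis from 0. Control 2 lies far up the same line as the others, and the ratio stays between 1.35 and 1.84.

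The other members went with other genes. Gja1 was most like Fap, Wif1, Itga10 and Plod2, with r from 0.91 to 0.95, and its r with the summed osteoblast and osteocyte genes was 0.90, against 0.38 with Gjb2. Plod2 modifies collagen, and Wif1 binds Wnt ligands. Gjc3 was most like Gpm6b, a glial membrane protein, at 0.92, followed by Zfp2, Terf2ip and Pea15a, and its r with Gjb6 was 0.81. With the summed lists, the r of Gjc3 was 0.68 for fibrocytes, 0.67 for oligodendrocytes and 0.62 for hair cells and for cerebellar neurons. For Schwann cells it was 0.46. Panx1 was most like Ptges2, Vapa, Cebpb and Ifitm2, at 0.82 to 0.88, and its r with the 4 connexins lay between -0.48 and -0.11. Over all 17 libraries without centring, where control 2 weighs on every value, the leading gene was Pou3f3 for Gjb2 at 0.97, Gjb2 for Gjb6 at 0.96, Zfp788 for Gja1 at 0.95, Ablim3 for Gjc3 at 0.98 and Ino80b for Panx1 at 0.76.

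Related channel genes were followed as lists. Of 15 other connexins in the table, 3 were tested and 0 passed in any comparison (limma), with 1 at an unadjusted p under 0.05 in NE against control, 2 in brimonidine against control and 0 in brimonidine against NE. Gjb1, another connexin of Schwann cells, was at 2.88 ± 2.13 FPKM in the controls and 1.47 ± 0.365 in the NE group, and the control mean was 1.66 ± 0.342 FPKM without control 2. Gja4, a connexin of vessels, was at 1.48 ± 0.345 and 1.63 ± 0.394. Among the other pannexins and CALHM channels 1 of 4 tested was lower in the NE group. This was Panx2, a pannexin of neurons, at 9.62 ± 6.26 FPKM in the controls, 1.95 ± 0.570 in the NE group and 1.61 ± 0.489 with brimonidine. Its log2 fold change was -1.72 (SE 0.29, adjusted p = 0.00264, limma) for NE and -1.89 (SE 0.28, adjusted p = 0.00162, limma) for brimonidine against control, where it was 1 of 5 tested. Without control 2 these were -1.27 and -1.44 (adjusted p = 0.00319 and 0.00123, limma). The genes of cerebellar neurons were lower in the same libraries, and their part in the Panx2 difference was not tested. Panx3, a pannexin of bone, was at 2.23 ± 0.531 FPKM in the controls and 2.68 ± 1.02 in the NE group.

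Partners of connexins and the ATP pathway were read in the same way. Of 11 scaffold, adhesion and kinase genes, among them Ctnnb1, Csnk1d, Cdh1 and Tjp1 as the highest, 0 passed in NE against control (limma), with 3 at an unadjusted p under 0.05. Ocln, a tight junction protein, passed in brimonidine against control, at -0.50 (SE 0.15, adjusted p = 0.0496, limma) from 5.07 ± 1.62 to 3.20 ± 0.430 FPKM, and did not pass without control 2, at -0.32 (adjusted p = 0.189, limma). In NE against control it was at -0.52 (adjusted p = 0.0763, limma), and in brimonidine against NE at 0.02. Panx1 releases ATP, which acts on purinergic receptors and is degraded by ectonucleotidases. Of 16 such genes tested in NE against control, Adora1 passed the filter on low values only through the controls and is left out of the count, and 1 of the other 15 was higher. Entpd1, an enzyme that degrades ATP, was at 11.1 ± 3.81 FPKM in the controls and 16.2 ± 1.49 in the NE group (0.55, SE 0.16, adjusted p = 0.0487, limma), and the gene did not pass without control 2, at 0.30 (adjusted p = 0.174, limma). Adora1, the adenosine A1 receptor, was at 4.78 ± 2.57 FPKM in the controls, 0.549 ± 0.140 with NE and 0.578 ± 0.332 with brimonidine. Since the low values of the exposed groups alone would not have let it be tested against control, these levels are given with no test. The genes of cerebellar neurons and of astrocytes were lower in the same libraries. Entpd3, P2rx4 and P2ry1 were the next highest of the list and did not pass. In brimonidine against NE, 0 genes of these 4 lists passed (limma), with 1 partner gene and 3 genes of the ATP list at an unadjusted p under 0.05.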

How the data were processed

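RNA sequencing covered 17 cochlear libraries, 1 mouse each. Per the labels, the authors trimmed reads with Trimmomatic, aligned them with HISAT2 to mm10 and used Cufflinks and HTSeq, versions not given in the sources used here, and they deposited FPKM values without further scaling between libraries. The authors' own test, DESeq2, needs counts and was not applied. Positions matched GRCm38.

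A gene entered a comparison if its FPKM was 1 or more in 3 or more of its libraries. Each pair of groups was fitted alone in limma 3.58.1 (R 4.3.3), by lmFit and trended eBayes on log2(FPKM + 1), and p values were adjusted by Benjamini-Hochberg over all genes tested. Called means an adjusted p under 0.05. A log2 fold change on this scale understates changes of low genes. The fit was tested on simulated data with gene means and spreads of the exposed libraries. That test does not cover the spread of the controls. Single members were also compared by exact two-sided permutation tests of group means of log2(FPKM + 1) (scipy 1.17.1, Python 3.11.15, numpy 2.4.6, pandas 2.3.3; figures by matplotlib 3.10.9). Fragments were recovered as FPKM times merged GENCODE M21 exon length, and 33868 of 35029 genes above 0 (96.7%) came out whole, within 0.1 of a fragment, for values under 200 fragments.

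Named genes were the 5 members in every library, the called and up to 4 highest genes of 4 related lists, and the 4 genes most like each member. The members and lists were chosen with earlier results of these data known. Alternatives tried were a pseudocount of 0.1, no filter, 3 rescalings, all 17 libraries in 1 model, array weights, robust eBayes, a replicate block and each library left out. A voom fit of recovered fragments, scaling to 6 fibrocyte genes and leaving out control 2 with brimonidine 5, and list calls without control 2, were added after seeing the data. Replicates are separate mice. One gene that the rule for named genes selects is not reported here.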

Additional observations from a re-analysis of the deposited data

How the results depend on the processing

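Gjc3 was called against control in every alternative tried but the replicate block, with log2 fold changes from -1.33 to -0.63 (adjusted p 9.1e-04 to 0.038, limma) in the NE and from -1.19 to -0.54 (adjusted p 0.00106 to 0.0473, limma) in the brimonidine group. The replicate number as a block left 0 members called in both comparisons, where 0% and 1.48% of genes were, with Gjc3 at -1.05 (adjusted p = 0.351, limma) and -1.01 (adjusted p = 0.184, limma). The numbers mark separate mice, and deviations of same-numbered libraries correlated between -0.24 and 0.09. With all 17 libraries in 1 model 2 members, Gjc3 and Gja1, were called against control in both comparisons, where 27.9% and 28.8% of all genes were, and in brimonidine against control also with array weights (43.4% of genes) and with voom (16% of genes). Leaving out 1 library gave between 1 and 2 calls against control and 0 in brimonidine against NE. The log2 fold changes of uncalled members changed sign in places. Against control, leave-one-out ranges of Gjb2 ran from -0.80 to 0.0901 (NE) and from -0.71 to 0.18 (brimonidine), and those of Gjb6 from -0.62 to 0.0899 and from -0.61 to 0.10, each highest without control 2. Without control 2 and brimonidine 5, brimonidine against control gave 0.17 for Gjb2 and 0.0834 for Gjb6, and array weights put Gjb6 at 0.0357 for NE and 0.0187 for brimonidine. In brimonidine against NE, Gjb6 was -0.00755 by median ratio, -0.0148 with array weights and -0.0728 scaled to fibrocyte genes, with a leave-one-out range from -0.0183 to 0.0618, and Gja1 was 0.0100 at equal totals, with a range from -0.0539 to 0.0540. Panx1 in brimonidine against control was 0.0393 by median ratio, 0.21 by quantiles and 0.0782 scaled to fibrocyte genes, with a range from -0.0517 to 0.0309. Gjc3 rests on as few as 133 fragments in a library, and the control group has 3 libraries.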
